A study of Mus musculus with 36 samples.

Results

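The knockout testis was compared between postnatal days 18 and 28 (P18 and P28) in 6 RNA sequencing libraries of total testis RNA, 3 from D1Pas1 knockout mice at P18 and 3 from knockout mice at P28. They were chosen by their genotype and age labels alone and are 6 of the 36 samples of the series. The 6 wild-type libraries of the same ages, 3 at P18 and 3 at P28, served only to show where the knockout differed, and the 6 P14 libraries, 3 of each genotype, only to place the levels at P18. All groups are mouse testis and differ by the labels only in genotype and age. No drug or other treatment is named, the knockout allele is not described there, and nothing in the labels says which libraries came from separate animals, so p-values measure only the spread between these libraries, which may be technical. Libraries are called below by the number of their column in the deposited tables, 10, 11 and 12 for the knockout at P18 and 4, 5 and 6 for the knockout at P28, and their values are given in that order.

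In the mouse the first wave of spermatogenesis runs through the juvenile testis in near synchrony. Spermatogonia give rise to spermatocytes, which pair and recombine their chromosomes, pass through a long pachytene stage, divide, and become haploid round and then elongating spermatids. Around the same weeks the Sertoli cells, which nurse the germ cells, stop dividing and switch off anti-Müllerian hormone, and the Leydig cells between the tubules change from progenitors into adult cells that make testosterone. D1Pas1 is an autosomal, testis-specific relative of the RNA helicase genes Ddx3x and Ddx3y. The comparison asks which of these programmes a testis without intact D1Pas1 still gains or loses over the interval.

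The label of the samples names male germ cells, but the libraries also carried defining genes of the other testis cells at substantial levels. Insl3 of Leydig cells reached 7726 CPM (each gene's count scaled to the size of its library), Sox9 of Sertoli cells 170.4 to 176 CPM at P18, and Col3a1 of fibroblast-like cells 766 CPM in library 10. The values are therefore read as whole testis. In such bulk samples fewer cells of a type and less RNA per cell cannot be told apart, and a rise of one cell type's RNA lowers the share of all others.

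The D1Pas1 gene on chromosome 1 still gave reads in every knockout library. It stood at 14.5, 22.3 and 20.6 CPM at P18 and 37, 47.9 and 50.6 CPM at P28, so that all P28 libraries lay above all P18 libraries. The rise was 1.26 ± 0.19 on the log2 scale (SE, 3 against 3 libraries, edgeR quasi-likelihood test, adjusted p = 6.42e-04). Wild-type libraries averaged 82.6 ± 33.9 CPM at P18 and 299.8 ± 102 CPM at P28 (SD, n = 3), above every knockout library of the same age. The labels do not say which bases the allele removes, and D1Pas1 shares long stretches with Ddx3x and Ddx3y, so these reads do not show that the gene is still functional.

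Its relatives moved too. Ddx3x, the X-linked helicase gene, stood at 194, 175 and 171 CPM at P18 and at 351, 324 and 384 CPM at P28 in the knockout. Ddx3y, the Y-linked one, stood at 68, 53 and 60.3 CPM and then at 125, 115 and 143 CPM. The P28 libraries lay above the P18 libraries for both genes, with log2 changes of 0.99 ± 0.11 for Ddx3x (SE, adjusted p = 1.63e-04, edgeR) and 1.10 ± 0.14 for Ddx3y (adjusted p = 2.28e-04, edgeR). Wild-type means were 147 and 146 CPM for Ddx3x and 47.7 and 48 CPM for Ddx3y at P18 and P28. The test of the difference, knockout change minus wild-type change, gave 0.86 ± 0.28 for Ddx3x (adjusted p = 0.0428, edgeR) and 0.94 ± 0.31 for Ddx3y (adjusted p = 0.0446, edgeR). Both calls ended when single libraries of either genotype were left out, with adjusted p up to 0.104 for Ddx3x without wild-type P28 library 2 and 0.105 for Ddx3y without knockout P18 library 11.

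Age and table cannot be told apart here, since each age was deposited in a table of its own that holds both genotypes. The library numbers run on from the P14 to the P18 table and start again at P28. Total estimated counts ran from 16730072 to 19241530 in the knockout at P18 and from 23683321 to 35564233 at P28. Log2 CPM values correlated at 0.994 to 0.997 within the P18 knockout group, at 0.987 to 0.993 within the P28 group and at 0.939 to 0.959 between them, across 24626 genes, while P14 and P18 knockout libraries, also from separate tables, correlated at 0.988 to 0.993. Several transcripts whose recovery depends on library chemistry or on how reads are assigned to near-copies moved in both genotypes. Rn45s, the ribosomal RNA precursor, stood at 11092, 9938 and 9897 CPM in the knockout at P18 and at 262, 216 and 67.9 CPM at P28, against 9183 ± 733 CPM (SD, n = 3) at P14. Clustered histone genes, whose messages lack a poly(A) tail, took 0.823% to 1.53% of counts at P18 and 0.311% to 0.413% at P28 in the knockout. Small structured RNAs such as snoRNAs took 2.68% to 5.09% and then 0.237% to 0.955%. Rps27 rose from 0.787 to 1.6 CPM to 75.9 to 125 CPM in the knockout while its copy Rps27rt fell from 121 to 345 CPM to 2.28 to 22.9 CPM. Grouped by the GC content of their promoters, from the lowest to the highest quartile of 2912 genes each, genes had median log2 changes of 0.32, 0.01, -0.04 and -0.13 in the knockout and 0.13, -0.17, -0.25 and -0.30 in wild type. The part of such table differences in the results below was not tested, and a table effect that is equal in both genotypes cancels in the test of the difference between them.

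**Figure D1:**
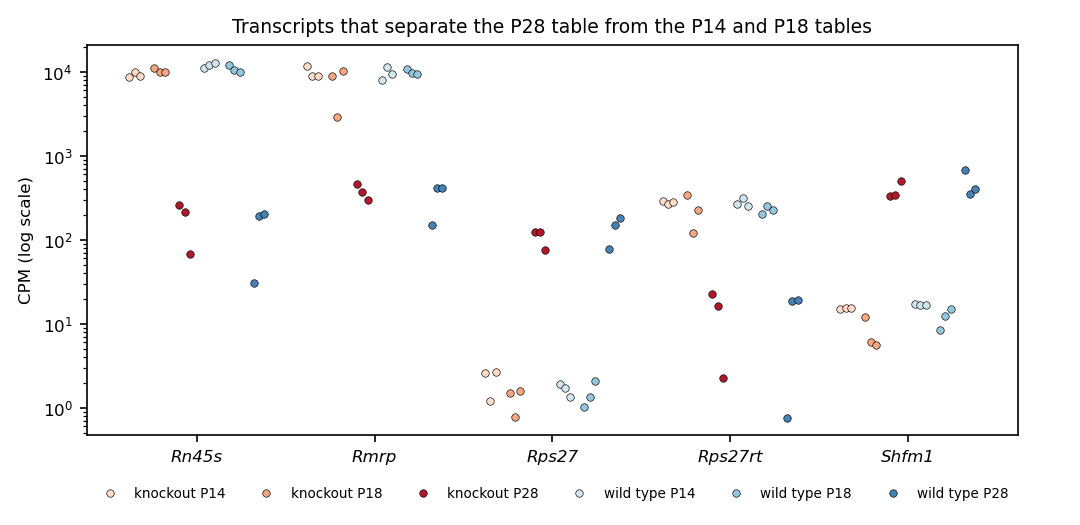
CPM on a log axis of 5 transcripts in each of the 18 libraries of both genotypes at P14, P18 and P28; each point is 1 library. In both genotypes the P14 and P18 libraries sit together and the P28 libraries stand apart for Rn45s, Rps27 and Rps27rt.

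Of 16044 genes tested in the knockout, 5087 were higher and 4866 were lower at P28, 31.7% and 30.3% of all genes tested (62.0% in all, edgeR quasi-likelihood test, Benjamini-Hochberg adjusted p at most 0.05). The median change over all genes was 0.02 on the log2 scale. For 70.2% of genes tested the 3 libraries of one age did not overlap those of the other. With so many genes called, a list in which about 3 in 10 members moved each way is no more than the background. In wild type 63.7% of 17332 tested genes were called, 33.7% higher and 30.0% lower. Of the genes higher in the knockout 56.8% were also called higher in wild type, which is 64.2% of the wild-type rises, and of those lower in the knockout 72.5% were also lower in wild type, which is 67.2% of the wild-type falls. Of the 15710 genes tested in both, 304 fell in the knockout and rose in wild type, and 93 did the reverse. The test of the difference called 22.7% of 17773 genes, with 5.54% changing more upward and 17.1% more downward in the knockout. That balance depended on scaling. With library totals in place of TMM factors, 5114 genes were called upward and 1922 downward in the knockout relative to wild type and the median of all differences moved from -0.00 to 0.56. Single libraries moved it too. Without wild-type P28 library 3, 6282 genes were called, 2627 of them upward, and the upward count lay between 408 and 643 without knockout P18 library 11 or 12, wild-type P18 library 7 or 8, wild-type P28 library 2 or knockout P28 library 6.

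**Figure D2:**
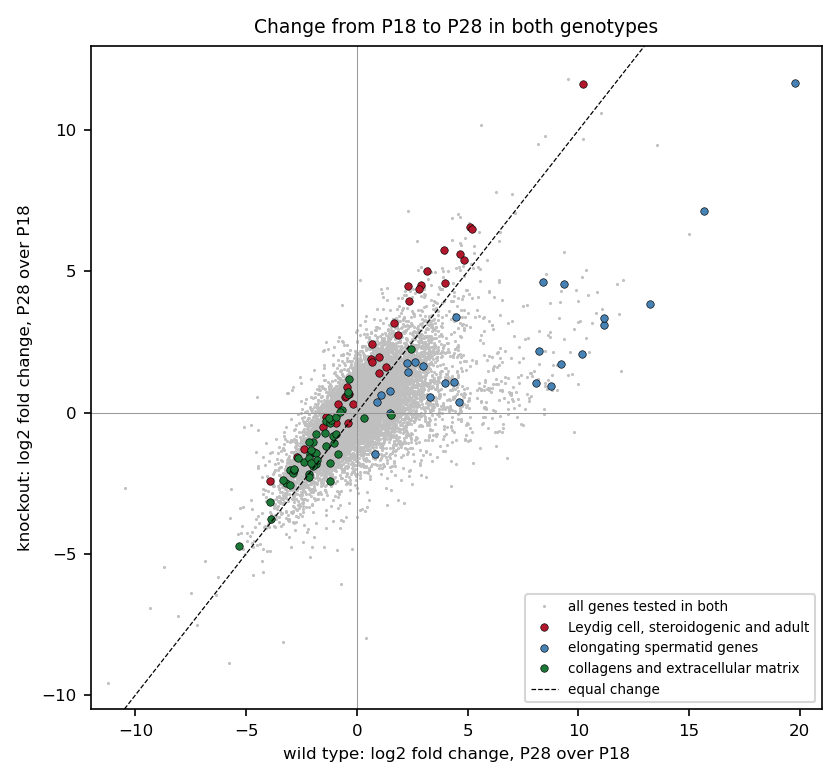
Log2 fold change from P18 to P28 in wild type (x axis) and in the knockout (y axis), 1 grey point per gene for the 15710 genes tested in both, with 3 gene lists in colour and the line of equal change. Most adult Leydig cell genes lie above the line. Many elongating spermatid genes lie far below it and others closer to it. Most matrix genes lie at negative values in both genotypes.

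Genes of adult Leydig cells rose as a group in the knockout. Of 33 list members tested, 23 rose and 5 fell, against 31.7% and 30.3% of all genes, with a median log2 change of 1.89 against 0.02 over all genes. The summed level of the list was 2278 to 3178 CPM in the P18 libraries and 12346 to 19319 CPM in the P28 libraries, and 2038 to 2363 and 4138 to 6735 CPM in wild type. The P14 knockout libraries held 2166 to 2282 CPM, so that the level of this list was similar at P14 and P18 and higher at P28. Promoters of 3 genes with large gains that are described below are shown, Insl3 and Sult1e1 of the list and Lcn2. The windows are the 250 bases before the annotated start, from RefSeq on assembly GRCm38.p6. Capitals mark AAGGTC or its reverse complement GACCTT, the core of the site bound by NR5A1, the orphan nuclear receptor that controls steroidogenic genes. Insl3 is at chr8:71689002-71689251 on the plus strand, Sult1e1 at chr5:87591612-87591861 on the minus strand and Lcn2 at chr2:32387740-32387989 on the minus strand.
Insl3: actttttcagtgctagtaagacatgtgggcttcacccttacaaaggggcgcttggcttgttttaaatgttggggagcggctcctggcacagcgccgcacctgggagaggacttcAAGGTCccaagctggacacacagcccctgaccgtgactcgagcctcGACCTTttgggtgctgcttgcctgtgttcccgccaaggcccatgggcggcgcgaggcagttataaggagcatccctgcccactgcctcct
Sult1e1: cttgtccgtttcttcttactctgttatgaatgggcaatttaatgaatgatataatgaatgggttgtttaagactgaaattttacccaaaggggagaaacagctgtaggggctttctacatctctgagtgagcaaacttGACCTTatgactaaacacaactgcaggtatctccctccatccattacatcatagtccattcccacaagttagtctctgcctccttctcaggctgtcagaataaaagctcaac
Lcn2: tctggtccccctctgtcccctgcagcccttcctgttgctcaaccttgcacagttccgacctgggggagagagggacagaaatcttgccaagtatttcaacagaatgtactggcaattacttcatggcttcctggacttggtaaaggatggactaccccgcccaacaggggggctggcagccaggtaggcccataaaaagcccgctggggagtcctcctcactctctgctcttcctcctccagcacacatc
The Insl3 window holds 1 forward and 1 reverse match, that of Sult1e1 holds 1 reverse match and that of Lcn2 holds 0. Searched on both strands, AAGGTC occurred in 6 of the 25 adult Leydig list members with a window (24.0%), in 2884 of 27025 windows of all promoters (10.7%) and in 395 of 3810 windows of genes that rose in the knockout (10.4%). Of the list members with a match, Insl3, Sult1e1, Ptgds and Klk1b21 rose, Akr1b7 fell and Cxcl12 was not called. Members that rose without a match included Cyp11a1, Hsd3b1, Hsd3b6, Hsd17b3, Lhcgr, Prlr and Gsta3. The match is a description of the letters and says nothing of binding.

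Insl3, the Leydig hormone that guides testis descent, stood at 403, 176 and 280.1 CPM at P18 and at 7726, 6486 and 5478 CPM at P28 in the knockout. All P28 libraries were far above all P18 libraries, a 23.2-fold rise (log2 4.54 ± 0.33, SE, adjusted p = 3.61e-05, edgeR). In wild type the gene went from 241 ± 101 to 1845 ± 405 CPM (SD, n = 3), and the knockout gained more by 1.45 ± 0.48 on the log2 scale (adjusted p = 0.0461, edgeR), a call lost without any of several single libraries of both genotypes, with adjusted p up to 0.115 without wild-type P18 library 7.

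The enzymes of testosterone synthesis rose along the pathway. Star, which moves cholesterol into mitochondria, went from 44.1, 29.1 and 19.5 CPM to 967, 465 and 613 CPM (log2 4.48 ± 0.42, adjusted p = 1.84e-04, edgeR). Cyp17a1, which makes the androgen precursor, went from 186, 82.3 and 42.7 CPM to 3242, 2458 and 1662 CPM (log2 4.58 ± 0.61, adjusted p = 8.69e-04, edgeR). Hsd17b3, which makes testosterone itself, went from 3.68, 1.92 and 2.86 CPM to 131, 68.4 and 66.9 CPM (log2 5.0 ± 0.38, adjusted p = 4.74e-05, edgeR). No P28 library overlapped a P18 library for these enzymes. Members chosen after their values were seen rose less: Cyp11a1, the side-chain cleavage enzyme, by 1.80 ± 0.41 and Hsd3b1 by 1.89 ± 0.18 on the log2 scale (adjusted p = 0.00871 and 6.88e-05, edgeR). Hsd3b6, the 3-beta-hydroxysteroid dehydrogenase of adult Leydig cells, stood at 84.2, 74.5 and 69.4 CPM and then at 663, 257 and 294 CPM (log2 2.43 ± 0.38, adjusted p = 0.00159, edgeR).

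The receptors and other markers of the adult cell moved the same way. Lhcgr, the receptor for luteinizing hormone, rose from 21, 12.1 and 12.1 CPM to 140.5, 139.7 and 119.9 CPM (log2 3.16 ± 0.23, adjusted p = 2.75e-05, edgeR). Prlr, the prolactin receptor, rose by 2.73 ± 0.19, Vcam1, an adhesion molecule, by 1.97 ± 0.13 and Gsta3, a glutathione transferase and steroid isomerase, by 3.94 ± 0.22 on the log2 scale (all adjusted p at most 2.23e-05, edgeR). Klk1b24, a kallikrein, rose by 5.74 ± 0.40 (adjusted p = 3.27e-05, edgeR), but kallikreins of this cluster are near-copies, so its reads cannot be assigned with certainty. The largest ratio was that of Sult1e1, the estrogen sulfotransferase that inactivates estrogens in Leydig cells, with 3 estimated counts in all P18 knockout libraries and 16595 in all P28 libraries. The ratio was 3520 with a 95% counting interval of 1204 to 17069, which covers counting error only, and it was 2045 without P28 library 4. Its P28 levels were 314, 100.3 and 109 CPM in the knockout and 26 ± 8.62 CPM (SD, n = 3) in wild type. Sult1e1, Star, Hsd17b3 and Hsd3b6 were all highest in library 4. Without that library 21 of the adult Leydig list rose, 7 fell, and the median change was 1.84.

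**Figure D3:**
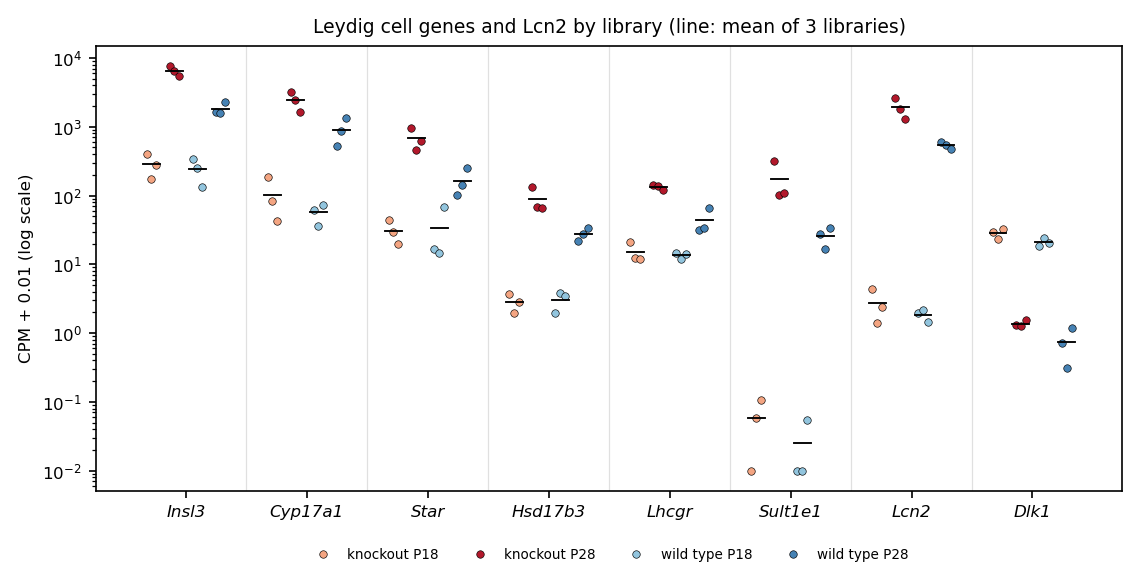
CPM plus 0.01 on a log axis for 7 genes that rose and for Dlk1, which fell, in knockout and wild-type libraries at P18 and P28; each point is 1 library and each line the mean of 3. The P28 knockout points of Insl3 lie at 5478 CPM or above and those of P18 at 403 CPM or below.

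The 5 adult Leydig members that fell were Akr1b7, an aldo-keto reductase of steroid-making tissues (log2 change -2.41), Tspo, a mitochondrial membrane protein (-1.57), Inha, the inhibin alpha subunit, which Sertoli cells also make (-1.28), Nr5a1 (-0.51 ± 0.18, adjusted p = 0.0392, edgeR) and Por, the electron donor of the cytochrome P450 enzymes (-0.36). They are named because they are the exceptions and were chosen after their values were seen. Without knockout P18 library 10 or 11, or P28 library 5, 3 members fell, and Nr5a1 and Por lost their calls (adjusted p up to 0.124 and 0.0917, edgeR). Against wild type, 7 of 33 members gained more in the knockout and 0 gained less, against 5.54% and 17.1% of all genes. They included Gsta3 with a difference of 1.44 ± 0.30 (adjusted p = 0.00485, edgeR), Hsd17b3 with 1.69 ± 0.47 (adjusted p = 0.0235), Hsd3b6 with 1.59 ± 0.44 (adjusted p = 0.0211) and Lhcgr with 1.33 ± 0.41 (adjusted p = 0.0343). The calls for Hsd17b3, Hsd3b6 and Lhcgr were lost without single libraries, knockout P18 library 12 among them, with adjusted p up to 0.063, 0.0554 and 0.0888. The call for Gsta3 held without each library. Wild-type P28 libraries hold much more spermatid RNA than knockout P28 libraries, and its part in these differences was not tested.

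Genes of Leydig progenitors and fetal Leydig cells went the other way. Of 16 tested, 8 fell and 1, Cyp1b1, rose by 1.19 on the log2 scale. Its rise was lost without knockout P18 library 11 or P28 library 4, and without P18 library 12 a further member rose. Dlk1, a membrane protein of progenitors that is lost from adult cells, went from 29.2, 23.2 and 33.2 CPM to 1.3, 1.24 and 1.52 CPM in the knockout, a 20.8-fold fall without overlap (log2 -4.38 ± 0.21, adjusted p = 1.13e-05, edgeR). Wild type fell by 4.82 on the log2 scale, and the difference, 0.28 ± 0.47, did not pass the test (adjusted p = 0.704, edgeR). Tcf21, a transcription factor of interstitial progenitors, fell by 1.90, and Gli1 and Ptch1, targets of the hedgehog signal sent by Sertoli cells, fell by 1.54 and 0.87. Srd5a1, the steroid reductase of immature Leydig cells, fell by 2.01. The median of this list was -0.46 and ranged from -0.72 to -0.08 over the alternative settings.

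Of 25 cholesterol synthesis genes, 11 rose and 5 fell, with a median of 0.51. Without knockout P18 library 10 or 12, 2 or 3 members fell. Msmo1, Cyp51, Pmvk and Lss, enzymes of the pathway, rose by 1.78, 1.39, 2.72 and 0.89 on the log2 scale. Srebf2, the transcription factor that drives the pathway, went from 142, 153 and 144 CPM to 42.6, 35.7 and 26 CPM, a log2 change of -2.06 ± 0.17 (SE, adjusted p = 3.99e-05, edgeR). The members named here are those with the smallest p. Srebf2 is among the 5 that fell, and 9 of the 25 genes were not called. The opposite directions therefore hold for the genes named and not for the whole list. Without knockout P28 library 4 the median was 0.24.

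Lcn2, lipocalin 2, a secreted iron-siderophore carrier of innate defence, was among the 12 largest rises and had reads in every library. It stood at 4.34, 1.38 and 2.38 CPM at P18 and at 2662, 1791 and 1295 CPM at P28, a 725-fold rise (log2 9.50 ± 0.55, adjusted p = 3.34e-05, edgeR). Wild type went from 1.83 ± 0.366 to 541 ± 65.6 CPM (SD, n = 3), and the difference of 1.15 ± 0.51 did not pass the test (adjusted p = 0.118, edgeR). Apoc1, an apolipoprotein, went from 0.878, 0.344 and 0.776 CPM to 145, 71.6 and 41.7 CPM in the knockout. Ugt1a6b, a glucuronosyltransferase that shares exons with its cluster, went from 0.549, 0.344 and 0.969 CPM to 160.1, 83.9 and 19.8 CPM. In both genes library 4 was the highest. Genes were named as largest rises only if their libraries did not overlap between ages, so the lack of overlap was set by that choice. Cd36, a scavenger receptor and fatty acid transporter, went from 12.8, 12.3 and 10 CPM to 578, 226 and 294 CPM (log2 4.99 ± 0.41, adjusted p = 1.06e-04, edgeR).

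Several of the largest rises started from 0. Klk1b22 had 0 estimated counts at P18 and 4.32, 20.1 and 28.5 CPM at P28, at least 328-fold higher when 3 counts over the group are taken as the floor. On the same floor Plac9a was at least 76.8-fold, Defa23 at least 69.4-fold, Klk1b8 at least 71.3-fold and Hist1h4n at least 119-fold higher. The bound for Klk1b8 fell to 31.6-fold without P28 library 5 and that for Hist1h4n to 73.4-fold without P28 library 6, and the latter rose to 188-fold without library 5. All are members of families with near-copies, so which copy their reads came from is uncertain, and Hist1h4n lost its call without knockout P18 library 11 or P28 library 4 or 6 (adjusted p up to 0.087). Bc1, a short neuronal non-coding RNA, stood at 0.384, 0 and 0 CPM and then at 18.7, 24.2 and 1.35 CPM.

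Sertoli cell genes split. The juvenile marker Amh, anti-Müllerian hormone, went from 45.8, 40.9 and 32.9 CPM to 3.02, 3.92 and 1.94 CPM in the knockout, a 13.1-fold fall (log2 -3.72 ± 0.26, adjusted p = 2.10e-05, edgeR). Wild type fell from 43.9 ± 3.18 to 0.803 ± 0.273 CPM (SD, n = 3), and the knockout fell by less, with a difference of 1.86 ± 0.38 (adjusted p = 0.00392, edgeR). The P28 knockout libraries all lay above the P28 wild-type libraries. Median differences were also positive for the juvenile, all-stage and mature Sertoli lists (0.43, 0.47 and 0.59, against -0.00 over all genes). The part of the spermatid RNA of wild-type P28 libraries in these differences was not tested. Of 11 juvenile Sertoli genes 5 fell and 2 rose, with a median of -0.67, and 1 rose without knockout P18 library 10 or 12 or P28 library 5. Ccnd2, a cyclin of dividing Sertoli cells and spermatogonia, changed by -1.72, Inhba, the activin beta-A subunit, by -2.36 and Sox8 by -0.85 on the log2 scale.

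Fgf9, a growth factor that promotes Sertoli cell fate in the fetal gonad, moved against that list. It stood at 0.878, 0.836 and 0.727 CPM at P18 and at 15.7, 11.4 and 35.9 CPM at P28 in the knockout, a 26.1-fold rise without overlap (log2 4.70 ± 0.51, adjusted p = 1.89e-04, edgeR). Wild-type P28 libraries held 0, 0.148 and 1.63 CPM. The difference was 4.36 ± 1.29 (adjusted p = 0.0305, edgeR), and its call was lost without any of several single libraries, with adjusted p up to 0.103 without wild-type P18 library 8. The other juvenile gene that rose was Cyp19a1, the aromatase that makes estrogen (log2 1.13), a call lost without knockout P18 library 10 or 12 or P28 library 5.

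Of 21 genes used at all Sertoli stages, 14 fell and 5 rose, with a median of -0.67 against 0.02 for all genes. The summed level, to which abundant members add most, went the other way, from 6350 to 7345 CPM at P18 to 7788 to 8330 CPM at P28 in the knockout, without overlap, and from 5764 to 6316 CPM to 3742 to 4859 CPM in wild type. Sox9, the transcription factor of Sertoli identity, went from 174, 170.4 and 176 CPM to 39.9, 49.1 and 54.9 CPM (log2 -1.84 ± 0.13, adjusted p = 2.41e-05, edgeR). Dmrt1, a transcription factor of Sertoli cells and spermatogonia, fell by 1.65, Dhh, the hedgehog ligand, by 1.61, and Espn, an actin-bundling protein of Sertoli junctions, by 1.55. Ctsl, a protease secreted by Sertoli cells, rose from 548, 448 and 446 CPM to 1062, 1278 and 1609 CPM (log2 1.47 ± 0.17, adjusted p = 1.78e-04, edgeR). Among 25 genes of mature Sertoli cells 8 rose and 8 fell, near the background shares of 31.7% and 30.3%. The sign of their median, -0.00, changed between settings (-0.12 to 0.20). Rhox5, an androgen-driven homeobox gene, rose from 12, 4.13 and 4.65 CPM to 36.5, 45.4 and 49 CPM (log2 2.68 ± 0.41, adjusted p = 0.00126, edgeR). Defb36, a beta-defensin, rose by 2.02. Shbg, the androgen-binding protein, fell from 168, 124 and 105 CPM to 72.1, 58.4 and 49.1 CPM (log2 -1.13 ± 0.20, adjusted p = 0.00163, edgeR). Slc16a3, a lactate carrier, changed by -2.88, Drd4 by -2.31, Inhbb, the inhibin beta-B subunit, by -1.69 and Gata1 by -1.36. No single direction describes Sertoli cell genes over the interval.

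Spermatogonial genes fell as a group. Of 33 tested, 23 fell and 4 rose, with a median of -1.65, and the wild-type median was -1.33. Sox3, a transcription factor of committed spermatogonia, went from 35.6, 40.9 and 36.5 CPM to 3.11, 2.87 and 2.75 CPM (log2 -3.67 ± 0.15, adjusted p = 8.99e-06, edgeR). Esx1, an X-linked homeobox gene, fell by 2.53, Lin28a, an RNA-binding protein that blocks let-7, by 2.28, and Sohlh2, a transcription factor of differentiating spermatogonia, by 1.86. The 4 that rose were Taf4b (0.44, a call lost without knockout P18 library 10 or 12 or P28 library 5), Lin28b (1.11), Id4 (1.60) and Tspan8, a tetraspanin of a spermatogonial subset, which went from 2.36, 0.934 and 2.04 CPM to 64.7, 47 and 54.2 CPM (log2 4.98 ± 0.31, adjusted p = 1.67e-05, edgeR). Tspan8 rose in wild type too, by 3.54.

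Genes of chromosome pairing and recombination were among those the knockout gained. Of 48 tested, 28 rose and 7 fell, against 31.7% and 30.3% of all genes, with a median of 0.51. In wild type 16 rose and 15 fell, with a median of -0.17. The summed level, to which abundant members add most, rose without overlap in both genotypes. It went from 4371 to 4751 CPM at P18 to 8321 to 11075 CPM at P28 in the knockout. In wild type it went from 4624 to 5138 CPM to 7073 to 8665 CPM. Sycp1, the transverse filament of the synaptonemal complex, stood at 201, 136 and 174 CPM at P18 and at 1023, 957 and 1493 CPM at P28 (log2 2.78 ± 0.22, adjusted p = 3.99e-05, edgeR). Sycp2, of the lateral element, went from 305, 345 and 333 CPM to 1202, 1227 and 1686 CPM (log2 2.09 ± 0.16, adjusted p = 2.90e-05, edgeR). Neither gene's libraries overlapped between ages. Syce1, of the central element, rose by 2.42, Psmc3ip, a cofactor of strand exchange, by 2.99 and Smc1b, the meiotic cohesin, by 2.10. Sycp3, the other lateral element protein, moved by only 0.63 ± 0.20 (adjusted p = 0.0246, edgeR), and lost its call without knockout P18 library 11 or 12 or P28 library 6 (adjusted p up to 0.0802). Against a 1.5-fold threshold 14 of the 48 rose and 2 fell, so that much of the group's change was small. Against wild type 11 of 48 members gained more in the knockout and 6 gained less, beside 5.54% and 17.1% of all genes. Sycp1 was one of the 11, with a difference of 1.13 ± 0.38 (adjusted p = 0.048, edgeR) that lost its call without single libraries (adjusted p up to 0.113 without knockout P18 library 11).

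Pachytene spermatocyte genes rose in part. Of 38 tested of 40 listed, 24 rose and 6 fell, with a median of 0.83 in the knockout and 1.45 in wild type. The summed level went from 5739 to 6283 CPM at P18 to 6891 to 7389 CPM at P28 in the knockout. In wild type it went from 9353 to 10848 CPM to 18617 to 29772 CPM. In the test of the difference 9 of 40 were lower in the knockout and 1 higher, against 17.1% and 5.54% of all genes. Crisp2, a secretory protein of the acrosome, went from 26.1, 52.4 and 35.6 CPM to 244, 249.5 and 235 CPM (log2 2.69 ± 0.23, adjusted p = 6.07e-05, edgeR), against 296 ± 52.1 CPM (SD, n = 3) in wild type at P18. Spata16, an acrosome protein, and Tekt1, a tektin of the flagellum, rose by 3.00 and 2.23, and Slc25a31, the germ cell ADP/ATP carrier, fell by 1.70. Tcfl5, a transcription factor of pachytene cells, went from 123, 163 and 135 CPM to 420.5, 521 and 523 CPM (log2 1.82 ± 0.14, adjusted p = 3.36e-05, edgeR). Piwil1, the Argonaute protein of pachytene piRNAs, went from 184, 314 and 260.4 CPM to 446, 462 and 385 CPM (log2 0.79 ± 0.18, adjusted p = 0.0059, edgeR), and the knockout gained more than wild type by 1.09 ± 0.26 (adjusted p = 0.01, edgeR). Ccna1, the cyclin needed for the first meiotic division, stayed low. It stood at 1.1, 1.62 and 1.45 CPM at P18 and at 3.11, 3.34 and 4.31 CPM at P28, a rise of 1.38 ± 0.28 (adjusted p = 0.00286, edgeR), while wild type went from 27 ± 12.8 to 243 ± 62 CPM (SD, n = 3). The difference for Ccna1 was -1.94 ± 0.49 (adjusted p = 0.0146, edgeR).

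Genes of the meiotic divisions diverged from wild type. Of 25 tested in the knockout 11 rose and 9 fell, with a median of 0.26. In the test of the difference 13 of 25 were lower in the knockout and 0 higher, against 17.1% and 5.54% of all genes. Plk1, the kinase that drives the exit from prophase, went from 32.6, 31 and 32.1 CPM to 11.4, 10.5 and 10.3 CPM in the knockout (log2 -1.55 ± 0.13, adjusted p = 3.60e-05, edgeR) and from 42.8 ± 8.16 to 96.9 ± 28 CPM (SD, n = 3) in wild type. The difference for Plk1 was -2.87 ± 0.29 (adjusted p = 2.94e-05, edgeR). Cdc25a, the phosphatase that activates cyclin-dependent kinases, changed by -1.20, Espl1, the separase that cuts cohesin, by -1.27 and Cdc20, an activator of the anaphase-promoting complex, by -1.27 in the knockout. Sgol2a, the protector of centromeric cohesin, rose by 1.45.

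Spermatid genes were present at low levels and rose from there. Of 36 round spermatid genes 20 passed the count filter in the knockout, of which 14 rose and 0 fell, and of 42 elongating spermatid genes 26 passed, of which 18 rose and 0 fell. Since members at low counts could pass through the P28 libraries alone, these shares describe the tested members only. The summed level of the round spermatid list was 443 to 638 CPM at P18 and 1064 to 1129 CPM at P28 in the knockout, and 1256 to 1620 and 7906 to 14674 CPM in wild type. For the elongating list the sums were 365 to 418 and 1106 to 1170 CPM in the knockout, and 1185 to 1437 and 27751 to 43096 CPM in wild type. The knockout at P28 thus stayed below wild type at P18 in both sums. In the test of the difference 17 of 36 and 18 of 42 members were lower and 0 higher. Over all genes the shares were 17.1% and 5.54%.

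The members fell into different patterns. Meig1, needed for the manchette of elongating spermatids and made from meiosis on, went from 39.9, 26.8 and 39.1 CPM to 295, 341 and 448 CPM in the knockout (log2 3.38 ± 0.22, adjusted p = 1.98e-05, edgeR), even in all 3 libraries. Crem, the transcription factor of spermatid genes, went from 38.5, 50.9 and 39.9 CPM to 81.3, 91.6 and 110.1 CPM (log2 1.15 ± 0.16, adjusted p = 3.91e-04, edgeR), against a wild-type mean of 721 ± 446 CPM (SD, n = 3) at P28. Spaca1, an acrosomal membrane protein, went from 5.71, 3.39 and 4.6 CPM to 14.6, 11.9 and 11.4 CPM (log2 1.49 ± 0.23, adjusted p = 7.22e-04, edgeR), and its difference from wild type was -4.58 ± 0.33 (adjusted p = 2.16e-06, edgeR). Hook1, Zpbp, Zpbp2, Odf2, Tsga10, Gk2 and Ropn1l, genes of the manchette, acrosome and flagellum, rose by 1.09, 1.35, 1.09, 1.06, 1.43, 1.78 and 0.76 on the log2 scale.

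Transcripts of late spermatids were highest in 1 library. Prm1, the protamine that packs sperm DNA, had 0 estimated counts in all P18 knockout libraries and stood at 41.6, 2.62 and 3.67 CPM at P28. With the same floor it was at least 330-fold higher over all libraries (adjusted p = 0.0286, edgeR) and at least 59.9-fold higher without library 4, and wild-type P28 libraries averaged 4997 ± 1612 CPM (SD, n = 3). Tnp1, a transition protein, stood at 0, 0.0983 and 0 CPM and then at 14.3, 0.69 and 1.1 CPM, a ratio of 166 with a 95% counting interval of 45.8 to 1378, and of 25.2 without library 4. Prm2 at 13.7, 0.69 and 0.338 CPM and Tnp2 at 12.3, 0.331 and 0.549 CPM had 0 counts at P18 and did not pass the count filter. Akap4, the main scaffold of the sperm fibrous sheath, stood at 0.439, 0.197 and 0.291 CPM and then at 10.8, 1.13 and 1.18 CPM. Acrv1, an acrosomal protein, stood at 1.9, 0 and 0.169 CPM at P28. Library 4 was the highest for all of these. Without it the median of the elongating list fell to 1.11 from 1.68, with 17 members called higher, and that of the round list was 1.10, with 12 higher and 1 lower. Without knockout P18 library 11 or 12, 11 elongating members rose. Prm1, Tnp1 and Akap4 lost their calls without single knockout libraries, with adjusted p up to 0.0972, 0.0913 and 0.0827. Why library 4 stands apart was not tested.

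**Figure D4:**
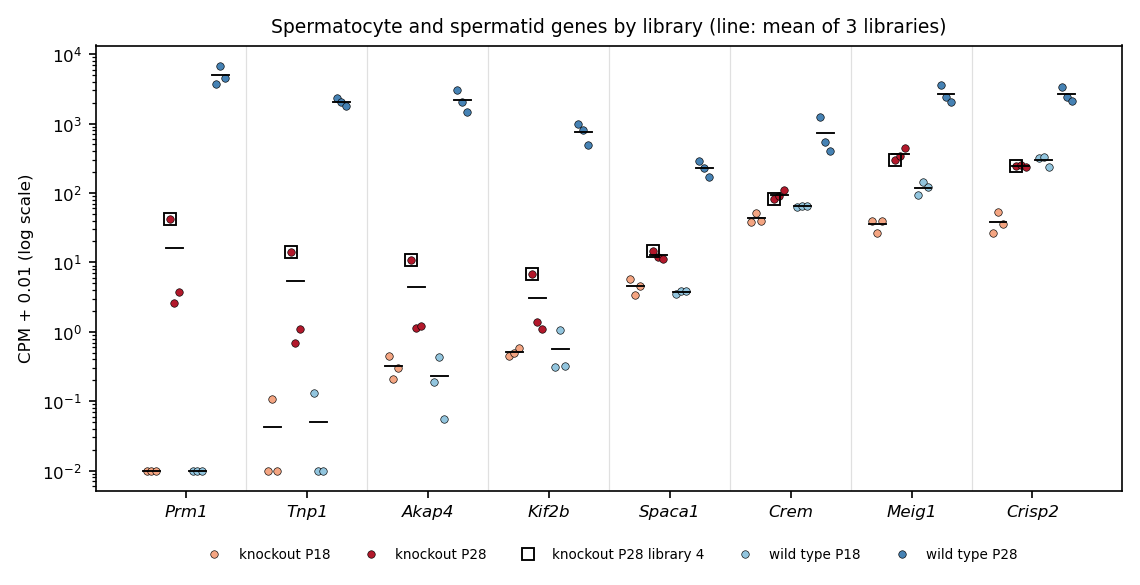
CPM plus 0.01 on a log axis for 8 genes in knockout and wild-type libraries at P18 and P28; each point is 1 library, each line the mean of 3, and open squares mark knockout P28 library 4. Library 4 stands above the other two for Prm1, Tnp1, Akap4 and Kif2b and does not for Crem, Meig1 and Crisp2.

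Genes of the axoneme, the microtubule core of the flagellum, rose in number. Of 36 tested, 26 rose and 2 fell, against 31.7% and 30.3% of all genes, with a median of 1.37. In wild type 39 were tested, with a median of 2.34. Members at low counts could pass the filter through the P28 libraries alone, so these values describe the tested members only. Ccdc39, a ruler of dynein spacing, went from 20.4, 28.6 and 25.3 CPM to 123, 135 and 159 CPM (log2 2.50 ± 0.16, adjusted p = 1.67e-05, edgeR). Cfap43 rose by 3.23, Spef2 by 2.41 and Dnah7a, a dynein heavy chain, by 2.09, each without overlap between ages. The 2 that fell were Rfx3 (-1.96) and Foxj1 (-1.35), transcription factors of ciliary genes. Against wild type 18 of 39 tested were lower and 0 higher, beside 17.1% and 5.54% of all genes. Of 30 piRNA pathway genes 13 rose and 6 fell, with a median of 0.36. In the test of the difference 4 of 31 were lower in the knockout and 1 higher, beside 17.1% and 5.54% of all genes. Mybl1, the transcription factor of pachytene piRNA clusters, rose by 1.05, and Mael, which acts with piRNAs on transposons, by 0.74, while Gpat2 and Pld6, mitochondrial proteins of piRNA synthesis, fell by 1.51 and 1.40.

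In the DDX3 relatives and R-loop processing list, which covers helicases and nucleases that act on RNA to DNA hybrids, 15 of 28 rose and 4 fell, with a median of 0.55. Rnaseh1, the nuclease that degrades the RNA of such hybrids, went from 11.1, 8.9 and 7.61 CPM to 27.6, 26.1 and 26.3 CPM (log2 1.56 ± 0.17, adjusted p = 1.20e-04, edgeR), more than in wild type by 1.08 ± 0.26 (adjusted p = 0.0104, edgeR). Thoc1, of the complex that packages nascent RNA, rose by 1.84, and Senp3, a SUMO protease, fell by 1.66. Against a 1.5-fold threshold 6 members rose. Among 36 sex-linked genes that pachytene cells normally silence, 11 rose and 8 fell, near the background shares. The sign of their median, -0.04, changed between settings. The summed level rose without overlap in the knockout, from 3903 to 4108 CPM at P18 to 4490 to 5703 CPM at P28. In wild type it was 2926 to 3205 and 2945 to 3262 CPM, and the wild-type median was -0.41. Atrx, an X-linked chromatin remodeller, went from 57.9, 62.2 and 60.7 CPM to 168, 142 and 210.1 CPM (log2 1.54 ± 0.15, adjusted p = 8.00e-05, edgeR). Utp14a rose by 1.59 and Uba1y, the Y-linked ubiquitin-activating enzyme, fell by 0.73. Of all 625 X-linked genes tested 177 rose and 171 fell, beside 31.7% and 30.3% of all genes, with a median of 0.07. The wild-type median was -0.37 over 706 X-linked genes tested. Of 20 Y-linked genes 11 rose and 3 fell, though many Y-linked genes are near-copies. Without knockout P18 library 12, 4 of the silenced sex-linked genes and 1 Y-linked gene fell, and without P28 library 5 also 1 Y-linked gene.

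Connective tissue genes fell in the knockout as in wild type. Of 47 collagens and matrix genes 35 fell and 4 rose, with a median of -1.42, and the summed level went from 5918 to 7025 CPM to 2763 to 3147 CPM. Eln, elastin, went from 161, 180.4 and 185 CPM to 6.32, 6.07 and 7.05 CPM, a 26.8-fold fall (log2 -4.74 ± 0.13, adjusted p = 1.82e-06, edgeR). Col1a1 went from 262, 272 and 348 CPM to 28.4, 37.1 and 31 CPM (log2 -3.17 ± 0.16, adjusted p = 1.13e-05, edgeR). The ages did not overlap for either gene. Lum, a collagen-binding proteoglycan, changed by -3.77, Col3a1 by -2.14 and Col18a1, a basement membrane collagen, by -2.03. The wild-type median was -1.84. Against wild type 2 of 47 members differed upward and 2 downward, beside 5.54% and 17.1% of all genes. The 4 that rose were Dcn (0.67), Ogn (0.73), Col11a1 (1.20) and Col12a1 (2.24), and Col11a1 lost its call without any one of the P18 libraries or P28 library 4.

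Of 22 peritubular myoid and smooth muscle genes 11 fell and 5 rose, with a median of -0.22, and 3 rose without knockout P18 library 11. Aoc3, a vascular and smooth muscle amine oxidase, changed by -2.31, Smoc2, a matricellular protein, by -1.86 and Mcam by -1.19. Among the 5 that rose were Tpm2, a tropomyosin, which went from 5.6, 4.97 and 4.02 CPM to 36.2, 28.8 and 36.4 CPM (log2 2.82 ± 0.19, adjusted p = 1.80e-05, edgeR), and Myh11, smooth muscle myosin, which went from 42.7, 33.8 and 42.6 CPM to 123, 92.1 and 139 CPM (log2 1.59 ± 0.18, adjusted p = 1.37e-04, edgeR). Of 18 endothelial genes 10 fell and 1, Emcn, rose by 0.85, with a median of -0.75. Emcn lost its call without any one of the P18 libraries or P28 library 4. Sox18, Erg, Tie1, Egfl7 and Pecam1, transcription factors and surface proteins of vessels, fell by 2.87, 2.78, 2.04, 1.72 and 1.28.

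Macrophage and immune genes moved up in the knockout. Of 33 tested, 16 rose and 2 fell, against 31.7% and 30.3% of all genes. The median was 0.53 in the knockout and -0.50 in wild type. The summed level of the list was 454 to 623 CPM at P18 and 999 to 1382 CPM at P28, and 400.2 to 535 and 713 to 782 CPM in wild type. Cd163, the hemoglobin scavenger receptor of resident macrophages, went from 1.37, 1.87 and 1.31 CPM to 8.86, 9.55 and 13.1 CPM (log2 2.81 ± 0.26, adjusted p = 5.98e-05, edgeR). Ptprc, the pan-leukocyte phosphatase CD45, went from 2.8, 2.02 and 2.08 CPM to 9.88, 9.96 and 11.2 CPM (log2 2.19 ± 0.21, adjusted p = 7.22e-05, edgeR). H2-Aa, a class II antigen-presenting chain, rose by 2.62, Mrc1, the mannose receptor, by 1.06 and Ctss, a lysosomal protease of antigen-presenting cells, by 1.36. Ctss rose more than in wild type by 1.08 ± 0.31 (adjusted p = 0.0243, edgeR), a call lost without single libraries (adjusted p up to 0.0645). Cd3e, a T cell receptor chain, was among those that fell (-2.22). Against wild type 5 of 34 members gained more and 1 gained less, beside 5.54% and 17.1% of all genes.

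Genes of blood and neighbouring tissues stayed low. Of 11 red blood cell genes 6 rose and 3 fell (1 without any one of the P18 libraries), and the highest globin, Hba-a1, stood at 3.07, 1.08 and 1.84 CPM at P18 and at 41.8, 14.1 and 9.8 CPM at P28. Hba-a2 and Hbb-bt, globins with near-copies, rose by 5.13 and 2.02, and Slc4a1, the anion exchanger of red cells, fell by 4.92. Of 16 epididymis genes 3 passed the count filter and 6 had no counts in any knockout library of either age. Cst8, which spermatids also express, and Adam28 rose by 3.45 and 2.61, and Spink8 stood at 4.14, 1.13 and 3.34 CPM at P28. Of 17 fat and skeletal muscle genes 5 passed, of which Plin1 and Myh1 fell by 0.78 and 0.94 and 0 rose, with Actn3, Mylpf and Pck1 not called (log2 changes 0.73, 0.57 and 0.29). None of 15 mitochondrially encoded genes was listed in the tables.

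Growth-related genes went down. Of 33 imprinted and juvenile growth genes 18 fell and 5 rose, with a median of -0.50 (wild type -1.24). Igf2, the fetal growth factor, went from 56.6, 43.3 and 57.8 CPM to 8.28, 6.4 and 1.69 CPM (log2 -3.23 ± 0.51, adjusted p = 0.00163, edgeR). H19, the non-coding RNA beside it, went from 9.39, 8.8 and 10.4 CPM to 4.59, 3.56 and 3.46 CPM (log2 -1.28 ± 0.20, adjusted p = 7.29e-04, edgeR). Sox4, Mycn and Gatm fell by 3.03, 2.65 and 0.84. Lin28b went against them, from 23.7, 32.4 and 28.3 CPM to 59.9, 58.5 and 61.6 CPM (log2 1.11 ± 0.14, adjusted p = 2.17e-04, edgeR). Of 40 proliferation and replication genes 19 fell and 6 rose, with a median of -0.40. Ccnd1 fell by 1.71, Rrm2, a subunit of ribonucleotide reductase, by 1.64 and Mcm7, of the replicative helicase, by 1.05. Mki67, the usual marker of cycling cells, moved the other way, from 56.4, 57.1 and 62.9 CPM to 252, 256 and 349 CPM (log2 2.30 ± 0.15, adjusted p = 1.90e-05, edgeR), and it rose in wild type by 1.29.

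Stress and clearance genes showed no common direction. The shares called in the p53, engulfment and heat shock lists were close to background or, for engulfment genes that fell, below it. Of all genes tested, 31.7% rose and 30.3% fell. Of 32 p53 targets and apoptosis genes 9 rose and 10 fell, and 5 rose without knockout P18 library 12. Gadd45a, a growth arrest gene, went from 5.33, 4.57 and 4.7 CPM to 12.3, 15 and 11.3 CPM (log2 1.42 ± 0.18, adjusted p = 2.80e-04, edgeR), more than in wild type by 1.63 ± 0.32 (adjusted p = 0.00308, edgeR), and Ccng1 rose by 1.01. Bax, Bok and Pmaip1, which promote cell death at mitochondria, fell by 1.64, 1.92 and 1.18. Of 40 engulfment and lysosome genes 13 rose and 9 fell. Pros1, a bridging ligand for the receptors by which Sertoli cells take up dying germ cells, went from 86, 83 and 74.6 CPM to 197, 220.3 and 295 CPM (log2 1.57 ± 0.16, adjusted p = 9.80e-05, edgeR). Becn1, of autophagy, rose by 1.13, and Tfeb, the transcription factor of lysosomal genes, fell by 2.26. Of 21 heat shock and unfolded protein genes 7 rose and 7 fell, with Hspa8 and Dnaja1 higher by 0.67 and 0.82 and Trib3, Asns and Dnajb1 lower by 2.37, 1.16 and 0.96. For Asns and Dnajb1 wild type rose, and the differences were -3.28 ± 0.40 (adjusted p = 1.15e-04, edgeR) and -1.81 ± 0.23 (adjusted p = 1.53e-04, edgeR).

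Among 21 retinoid genes 9 fell and 5 rose, beside 30.3% and 31.7% of all genes, with a median of -0.23. Their summed level overlapped between ages, at 1454 to 1627 CPM at P18 and 1338 to 1858 CPM at P28 in the knockout. Stra6, the retinol uptake receptor, fell by 2.16, Rxrb by 2.00, Rarg by 1.69 and Rbp4, the retinol carrier, by 1.43. Adh1, an alcohol dehydrogenase that oxidizes retinol, went from 17.8, 9.93 and 13.6 CPM to 102, 102 and 115 CPM (log2 2.97 ± 0.21, adjusted p = 2.23e-05, edgeR), more than in wild type by 1.40 ± 0.32 (adjusted p = 0.00847, edgeR). Of 36 hormone signalling genes 20 fell and 7 rose, with a median of -0.75, the risers being led by Insl3, Lhcgr and Prlr, while the summed level rose from 2202 to 2769 CPM to 7209 to 9870.4 CPM. Of 21 immediate early genes 9 fell and 3 rose, beside 30.3% and 31.7% of all genes, with a median of -0.26. Jund, Egr1, Klf6, Klf4 and Egr2 changed by -2.50, -1.73, -1.65, -1.58 and -1.36. Klf4, which spermatids also express, rose in wild type by 1.99, a difference of -3.74 ± 0.33 (adjusted p = 1.11e-05, edgeR).

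**Figure D5:**
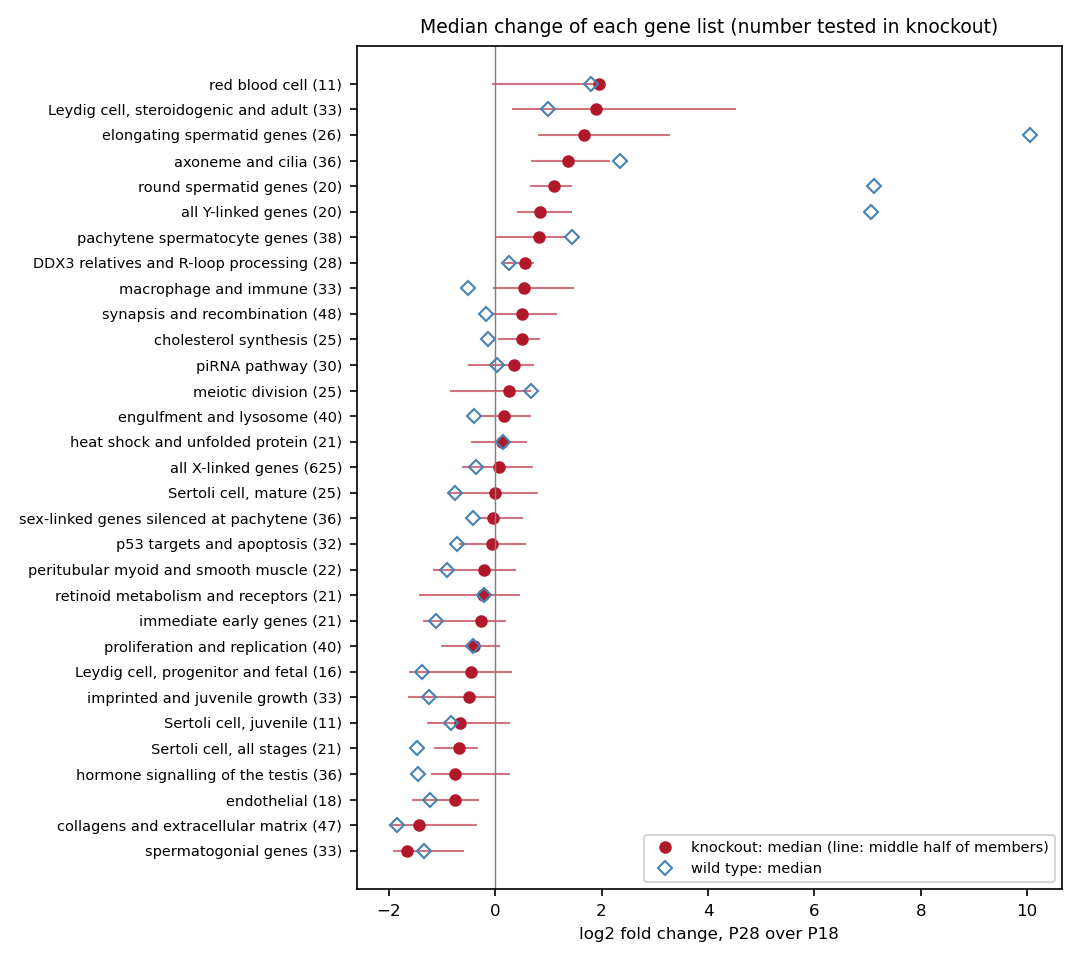
Median log2 fold change from P18 to P28 of each gene list with at least 10 members tested; red points are the knockout with a line over the interquartile range of the members, open diamonds the wild type, and the number tested is in brackets. Adult Leydig cell genes reach 1.89 in the knockout and 0.99 in wild type. Elongating spermatid genes reach 1.68 over 26 members tested in the knockout and 10.05 over 42 tested in wild type. These 2 medians cover different members, as do those of round spermatid genes (20 and 36 tested) and Y-linked genes (20 and 43 tested).

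The largest falls were mostly of the RNA classes described above as moving in both genotypes. Of 68 clustered histone genes 59 fell and 4 rose, with a median of -2.95 in the knockout and -2.80 in wild type, and Hist1h2ae, Hist1h3d, Hist1h2af, Hist1h2bg and Hist2h4 changed by -5.66, -5.25, -4.90, -4.85 and -4.84. Their near-copies make single members uncertain. The nuclear RNAs Scarna6 and Snord22 changed by -6.47 and -6.38, and Rn45s by -5.81, again in both genotypes. Of 20 structured non-coding RNAs tested 10 fell and 4 rose. Removing histones and these RNAs before the fit left 9897 genes called. Protein-coding genes other than histones were fewer at the same rank. Cck, the peptide cholecystokinin, went from 16.8, 16.1 and 16.6 CPM to 0.302, 0.138 and 0.507 CPM (log2 -5.75 ± 0.36, adjusted p = 1.60e-05, edgeR). Rsc1a1 went from 11.1, 14.5 and 14.4 CPM to 0.121, 0 and 0 CPM, Shank3 from 4.45, 4.62 and 3.01 CPM to 0.242, 0 and 0 CPM, and Ccrn4l, a circadian deadenylase gene, from 2.86, 3.05 and 5.96 CPM to 0.151, 0 and 0 CPM. For Ccrn4l wild type did not pass the test (log2 -0.71), and the difference was -5.53 ± 1.36 (adjusted p = 0.0124, edgeR).

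Among genes called in the knockout, the largest gains over wild type included, beside Defa23 (8.84 ± 2.81, adjusted p = 0.0466, edgeR) and Fgf9, low-level genes that were highest in library 6. Nkx2-1, a homeobox gene of lung and thyroid, stood at 0.0549, 0.344 and 0.0485 CPM at P18 and at 6.92, 3.83 and 16.2 CPM at P28 in the knockout, against 1.03, 0.148 and 0.151 CPM in wild type at P28. The difference was 5.07 ± 1.36 (adjusted p = 0.0189, edgeR). Usp17la, a deubiquitinase of a multicopy family, stood at 8.74, 6.15 and 21.1 CPM at P28 in the knockout, with a difference of 4.52 ± 1.19 (adjusted p = 0.0175, edgeR). Myoz3, a sarcomere protein, stood at 4.99, 5.19 and 16.3 CPM, with a difference of 4.29 ± 1.03 (adjusted p = 0.011, edgeR). All knockout P28 libraries exceeded all wild-type P28 libraries for these genes, and each call was lost without 1 wild-type P18 library, library 7 for Nkx2-1 and library 9 for Usp17la and Myoz3 (adjusted p = 0.0581, 0.15 and 0.0512, edgeR). Cd52, a leukocyte surface peptide, stood at 14.2, 4.66 and 5.74 CPM, with a difference of 4.30 ± 1.24 (adjusted p = 0.0272, edgeR), but its level at P14 was already 11.5 ± 0.678 CPM (SD, n = 3) in the knockout, and its call was lost without single libraries (adjusted p up to 0.0973).

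The largest shortfalls were genes whose wild-type level was high at P28. Akap4 reached 2201 ± 829 CPM (SD, n = 3) in wild type at P28, and its difference was -9.56 ± 2.06 (adjusted p = 0.0066, edgeR). Kif2b, a kinesin, stood at 6.86, 1.35 and 1.1 CPM in the knockout and at 759 ± 249 CPM in wild type at P28, a difference of -7.88 ± 1.27 (adjusted p = 0.00106, edgeR). Spata21 differed by -7.63 ± 0.81 and Adam1a, a sperm surface protease, by -6.63 ± 0.54 (adjusted p = 4.82e-05 and 5.47e-06, edgeR). Frat1, an inhibitor of glycogen synthase kinase, moved in opposite directions. It fell from 6.2, 5.26 and 6.06 CPM to 1.84, 1.77 and 1.31 CPM in the knockout (log2 -1.81 ± 0.24, adjusted p = 2.93e-04, edgeR) and rose from 5.58 ± 1.22 to 125 ± 35.2 CPM (SD, n = 3) in wild type, a difference of -6.43 ± 0.35 (adjusted p = 1.11e-06, edgeR). Otub2, a deubiquitinase, was 4.1 ± 1.11 CPM in the knockout and 585 ± 227 CPM in wild type at P28 (SD, n = 3), with a difference of -6.32 ± 0.45 (adjusted p = 2.16e-06, edgeR). Within the knockout, Kif2b and Otub2 were called higher at P28 (adjusted p = 0.0199 and 0.0474, edgeR), calls that were lost without single knockout libraries (adjusted p up to 0.0662 and 0.15).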

How the data were processed

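Bulk RNA-seq libraries from the testes of D1Pas1 knockout and wild-type mice at P18 and P28 were used, 3 per group, with the P14 libraries printed for level only. The authors deposited estimated counts per gene (expected counts, not whole numbers), 24626 genes per age, with no length normalisation. Per the submitters' processing notes, cutadapt 3.4 and the mm10 build were used. The sources used here do not give the aligner, the counting tool or its strand setting, so near-copies and overlapping genes may share reads. Nothing in the labels says whether libraries of a group came from separate animals, so p-values measure the spread between these libraries.

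The tables were joined by gene name and the counts rounded to whole numbers. Genes were filtered with filterByExpr (minimum count 10, minimum total 15), scaled by TMM and tested in edgeR 4.0.16 (limma 3.58.1, R 4.3.3) with the robust, two-sided quasi-likelihood F-test and Benjamini-Hochberg adjustment over all genes tested, at a threshold of 0.05. One fit held the 6 knockout libraries, a second the 6 wild-type libraries, and the last all 12 libraries for the difference of the changes. Fold changes are log2 values with the SE derived from the F statistic. Levels are CPM over TMM-scaled libraries, not corrected for gene length. DESeq2 1.42.0, other scalings, filters and left-out libraries were alternatives. The fits were tested on simulated data.

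Named genes were the 12 largest rises and 12 largest falls in the knockout that were called, averaged 1 or more on the log2 CPM scale and had no overlap between ages, the 6 largest differences in each direction by the same limits, up to 5 members of each list with the smallest p, and defining cell type markers. Some genes that this rule names are not reported here. Of genes past these limits, 547 of 4446 rising and 161 of 4360 falling were predicted or clone-named and are only counted. Of 947 entries in 32 lists, 907 matched by name, 14 by an older name and 26 not at all. X-linked and Y-linked genes made 2 further lists. The comparison and the lists were chosen with earlier results of these data known. Promoter sequences are from RefSeq (GRCm38.p6).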

Additional observations from a re-analysis of the deposited data

Results flagged for a closer look

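For 57 named genes the change from P18 to P28 differed between knockout and wild type, by edgeR's test of the difference of the 2 changes. Values are the log2 change in the knockout minus that in wild type.

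Among genes of Leydig and Sertoli cells the knockout changed upward relative to wild type for Insl3 (1.45), Hsd17b3 (1.69), Hsd3b6 (1.59), Lhcgr (1.33), Gsta3 (1.44), Amh (1.86), Fgf9 (4.36) and Shbg (1.10). The same direction was found for Tpm2 (1.37) of contractile cells, the macrophage protease Ctss (1.08), the p53 target Gadd45a (1.63) and the retinol dehydrogenase Adh1 (1.40). Of the germ-line lists, Lin28b (0.87), Sycp1 (1.13) and Piwil1 (1.09) did so. So did the X-linked Atrx (1.01), the D1Pas1 homologues Ddx3x (0.86) and Ddx3y (0.94) and Rnaseh1 (1.08). Defa23 (8.84), Nkx2-1 (5.07), Usp17la (4.52), Cd52 (4.30) and Myoz3 (4.29) were genes of low level. Wild-type P28 libraries held much more spermatid RNA than knockout P28 libraries, and its part in these upward differences was not tested.

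Genes that changed downward relative to wild type were mostly germ-line genes. The differences were -1.94 for Ccna1, -2.87 for Plk1, -1.74 for Cdc25a, -1.23 for Espl1 and -0.79 for Cdc20, all of the meiotic divisions. Spermatid genes gave -2.48 for Crem, -4.58 for Spaca1, -2.37 for Hook1, -3.10 for Odf2, -1.04 for Zpbp2, -1.26 for Meig1, -1.03 for Tsga10, -1.0 for Gk2, -0.91 for Ropn1l and -9.56 for Akap4. Axoneme and cilium genes gave -2.69 for Rfx3, -5.39 for Foxj1 and -1.61 for Tekt1. The piRNA factor Mael had -0.98 and the replication genes Rrm2 and Mcm7 had -0.74 and -1.11. Genes of other lists were Cst8 (-3.17), Myh1 (-1.98), Asns (-3.28), Dnajb1 (-1.81), Klf4 (-3.74), Rsc1a1 (-4.94) and Ccrn4l (-5.53). The genes with the steepest differences were Kif2b (-7.88), Spata21 (-7.63), Adam1a (-6.63), Frat1 (-6.43) and Otub2 (-6.32).

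The call of the difference was lost without at least 1 single library for Ddx3x, Ddx3y, Insl3, Hsd17b3, Hsd3b6, Lhcgr, Defa23, Fgf9, Shbg, Lin28b, Sycp1, Cdc20, Meig1, Zpbp2, Gk2, Atrx, Tpm2, Ctss, Rrm2, Rsc1a1, Nkx2-1, Usp17la, Myoz3 and Cd52.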

How the results depend on the processing

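Among the genes named, none changed direction between settings where it was called. Of 204 called in the knockout, 180 stayed called in every alternative, and of 57 called for the difference, 27 did. In the knockout, 8281 to 10028 genes were called without single libraries, 9982 by DESeq2, 9966 with library totals (4446 higher and 5520 lower, median log2 change -0.09), 9954 with DESeq2's size factors, 9996 without the filter, 9548 at a CPM of at least 1, 9956 with scaling that left out germ-line lists, 9093 in the fit over 12 libraries and 11062 with the P14 libraries added. Against a change of 1.5-fold, 5596 were called, 2850 higher and 2746 lower. The difference was called for 5934 genes by DESeq2, 1982 upward and 3952 downward, and for 7036 with library totals, 5114 upward and 1922 downward. Against 1.5-fold it was called for 2071, 149 upward and 1922 downward. Without single libraries it was called for 2822 to 6282, 408 to 2627 upward and 2403 to 3655 downward. Wild type gave 9441 to 11231 genes without single libraries, 11132 by DESeq2 and 11891 with library totals (4309 higher and 7582 lower, median -0.52). Leaving out clustered histones and structured RNAs, which gave 9897 in the knockout, and all wild-type alternatives were chosen after seeing the data. The cause of these shifts was not tested. No paired analysis was possible because the library numbers in the tables are not the replicate numbers of the labels. Genes with few reads at P18 have fold changes that depth limits, and late spermatid genes in the knockout are among them.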
